A study of Mus musculus with 2 samples.

Results

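The splice junctions described here come from 2 libraries of mouse liver poly-A RNA, in a file that lists each place where reads were split across an intron, with the reads of libraries called R1 and R2. Each junction carries a flag A of 0 or 1 whose meaning the file does not give. The members were chosen by measured values, namely flag A at 0 and at least 10 reads in R1 and in R2, with an intron of at least 100 and under 100000 bases (mm9), outside a stretch of 150000 bases on chromosome 5 that ends at base 91000000 and holds the albumin locus. They number 4356 of the 352887 junctions in the file, and 2.02% of the 216146 with flag A at 0. A second set of 63214 junctions with flag A at 1, under the same limits of reads, length and place, served for comparison and is called the reference set. The liver came from 8-week-old C57BL/6J mice, an inbred strain, taken from littermates of both sexes. Both labelled samples belong to 1 group with no treatment or genetic change named, and they carry 1 donor identifier, so differences between libraries may be technical. The labels describe strand-specific paired reads of 76 bases from RNA longer than 200 nucleotides. R1 and R2 are not matched to labelled replicates 1 and 2. Ahsg, the liver-made plasma protein fetuin-A, stood at a TPM (a level scaled by transcript length and by library) of 14800 in replicate 1 and 14700 in replicate 2, and Apoe, an apolipoprotein that liver secretes, at 36300 and 33800.

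Introns are cut from a primary transcript by the spliceosome, which joins the last base of one exon, at the donor site, to the first base of the next, at the acceptor site. Most introns begin with GT and end with AG, and small classes begin with GC or AT. The liver makes plasma proteins, apolipoproteins and enzymes of drug, lipid and amino acid handling in large amounts, and many of these come from families of neighbouring gene copies with near-identical exons.

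The junctions took 8 forms. In the first, 349 junctions had the exact length of an intron in the GENCODE M21 annotation but lay 1 to 6 bases beside its place. In the second, 285 joined a donor of one gene to an acceptor of another. A further 130 joined a donor and an acceptor that flag A 1 junctions also use, without a gene named at both ends, and 241 did so within 1 gene. At 862 places the junction was itself an M21 intron. New acceptors, which start from a donor of a flag A 1 junction, were found in 738 others, and new donors in 730. The remaining 1021 shared neither site and matched no M21 intron, in place or slid. By reads the order differed. Junctions between genes were 6.54% of the set and held 30.1% of its reads, and slid introns were 8.01% and held 17.5%. These remaining 1021 were 23.4% of the set with 10.9% of its reads.

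**Figure D1:**
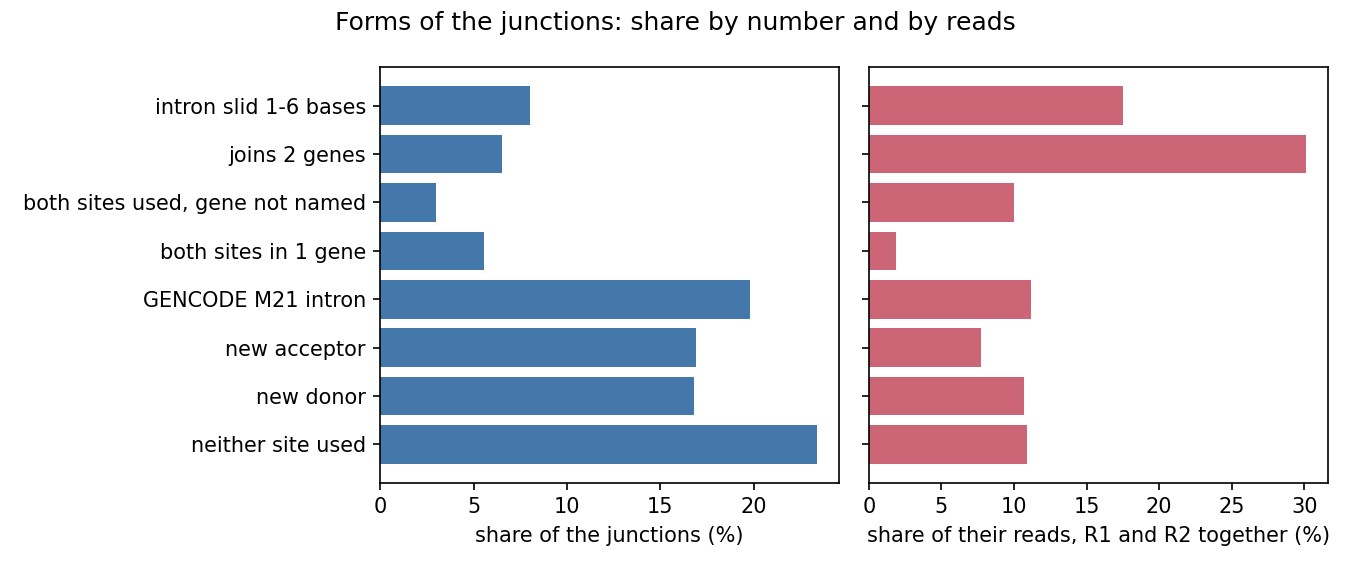
Left, share of the 4356 junctions in each form (percent of junctions). Right, share of their reads in R1 and R2 together (percent of reads). Junctions between 2 genes rank low by number and highest by reads, at 30.1%.

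Sequences across 8 of the best-read slid introns are shown because the bases beside the join are what these junctions have in common. Each line holds the last 15 bases of the exon before and the first 15 of the exon after, from the GENCODE M21 transcripts, all coding. Capitals mark the exon bases that the junction in the file places inside the intron. On the plus strand (Sod1, Selenbp1, Khk, Selenbp2) these end the exon before, and on the minus strand (C3, Cyp2d26, Sardh, F12) they begin the exon after.
C3 exon 29 to 30: tatggctccacccagGCtaccttcatggta
Sardh exon 10 to 11: cagctatgacatcagGCgtttccatcactc
F12 exon 10 to 11: ctgcctgcagaatcgGCcagcgcccgagga
Cyp2d26 exon 2 to 3: ggcacaaatcaaaagGtgtgatccttgcac
Sod1 exon 1 to 2: cacttcgagcagAAGgcaagcggtgaacca
Selenbp1 exon 4 to 5: ccgaagttgcacaAGgtcattgaagccagt
Selenbp2 exon 4 to 5: ccgaagttgcacaAGgtcattgaagccagt
Khk exon 5 to 6: tggatccacattgAGggccggaatgcatcg
C3, Sardh and F12 share the letters GC at the start of the exon after, and Selenbp1, Selenbp2 and Khk share AG at the end of the exon before.

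Sequences across junctions between genes are shown for 3 pairs, since their likeness is the measured trait of this form. Each group of 3 lines holds the donor gene's own junction, the junction between the genes, and the acceptor gene's own junction, with 30 coding bases on each side of the join. Capitals mark bases that differ from the middle line.
Serpina1c exon 3 to Serpina1c exon 4: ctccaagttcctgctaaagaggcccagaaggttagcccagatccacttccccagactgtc
Serpina1c exon 3 to Serpina1a exon 5: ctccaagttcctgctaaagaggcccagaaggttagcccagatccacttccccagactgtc
Serpina1a exon 4 to Serpina1a exon 5: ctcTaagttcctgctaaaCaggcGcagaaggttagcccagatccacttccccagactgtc
Cyp4a10 exon 10 to Cyp4a10 exon 11: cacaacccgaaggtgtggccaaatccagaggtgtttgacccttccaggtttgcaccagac
Cyp4a10 exon 10 to Cyp4a31 exon 11: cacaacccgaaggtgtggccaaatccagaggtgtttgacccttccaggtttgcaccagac
Cyp4a31 exon 10 to Cyp4a31 exon 11: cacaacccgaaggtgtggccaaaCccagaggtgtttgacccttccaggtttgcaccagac
Cyp2c40 exon 7 to Cyp2c40 exon 8: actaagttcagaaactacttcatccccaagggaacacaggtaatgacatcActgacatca
Cyp2c40 exon 7 to Cyp2c68 exon 8: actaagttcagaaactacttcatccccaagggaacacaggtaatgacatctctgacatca
Cyp2c68 exon 7 to Cyp2c68 exon 8: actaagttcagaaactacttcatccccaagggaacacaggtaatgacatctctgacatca
In the first and second groups the middle line is letter for letter the donor gene's own junction. In the third it is the acceptor gene's own junction over these bases.

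The last set shows new acceptors 3 bases inside a known exon and new donors 4 bases before the end of one. New here means in use by no flag A 1 junction, and says nothing of annotation. The Ces1e junction is itself an M21 intron, and an M21 transcript with that intron has an identifier that is also among the M4 transcripts. Capitals mark the bases that the new junction leaves out, between 15 bases on each side.
Aes exon 6 to 7: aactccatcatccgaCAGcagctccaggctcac
Ces1e exon 1 to 2: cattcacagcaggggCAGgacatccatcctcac
Col18a1 exon 35 to 36: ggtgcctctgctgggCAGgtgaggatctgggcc
Slc25a13 exon 9 to 10: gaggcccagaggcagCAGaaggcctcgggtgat
Pcyt2 exon 5 to 6: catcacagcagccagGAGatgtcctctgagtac
Mup3 exon 5 to 6: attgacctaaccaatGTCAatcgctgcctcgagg
Atp6v0b exon 1 to 2: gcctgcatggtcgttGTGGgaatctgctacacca
The 5 acceptors leave out a triplet that ends in AG, and both donors leave out a run that begins with GT.

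Reads and flag chose these junctions, so both are given as description. Of 24692822 junction reads in R1 the set took 725953, or 2.94%, and of 25796894 in R2 it took 783475, or 3.04%. The median junction had 29 reads in R1 and 32 in R2, against 51 and 55 in the reference set. At most 100 reads in both libraries together were seen in 2925 junctions, and 212 had 1000 or more. The 10 best-read junctions held 25.7% of the set's reads. Just inside the limit, 322 junctions had exactly 10 reads in their lower library, with a median of 25 in both together, and just outside it 377 had 9, with a median of 23. Flag A 0 junctions with enough reads that other limits left out were 301 shorter than 100 bases, 880 of 100000 bases or more and 61 in the excluded stretch of chromosome 5. Introns were longer than in the reference set, with a median of 2080 bases against 1235, and 27.1% exceeded 10000 bases against 7.2%. After scaling to the junction reads of each library, 3653 junctions lay within a 2-fold change between R1 and R2, which is 83.9%, against 90.6% of the reference set. The median log2 ratio of R2 to R1 was 0.01.

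**Figure D2:**
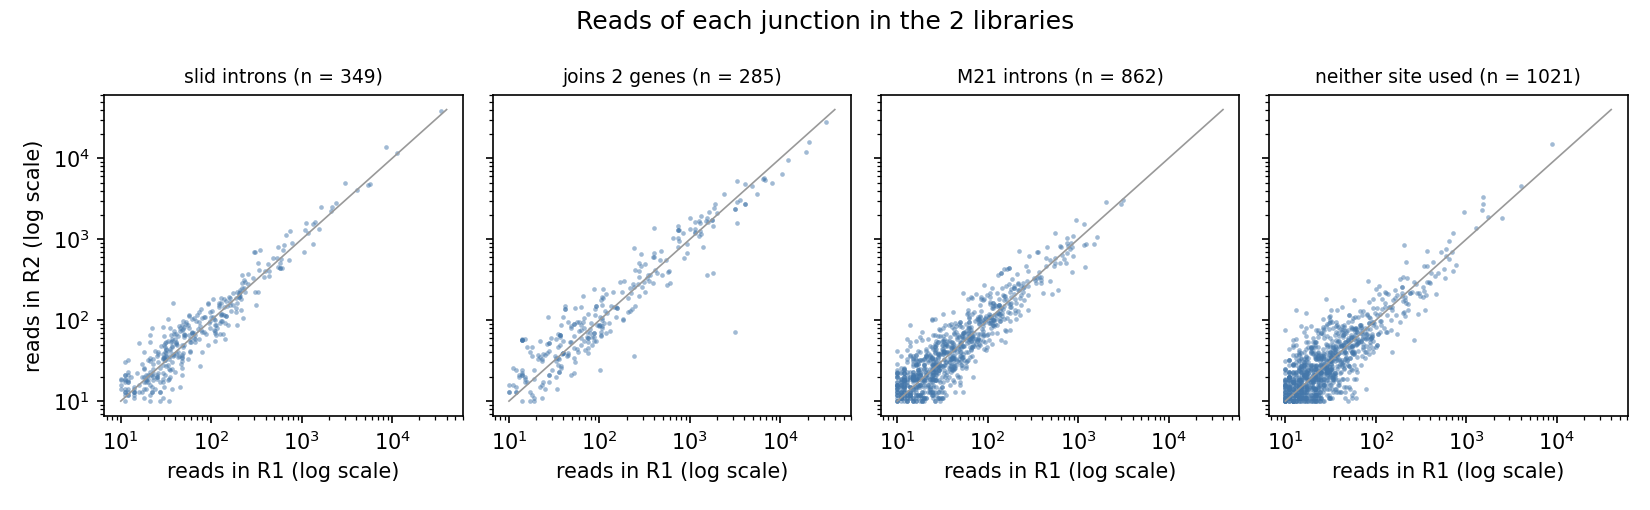
Reads of each junction in R1 (x axis) and R2 (y axis), both on log scales, for 4 of the forms, with the line of equal reads. Points spread more widely at low reads, and among junctions between genes 1 point with 3170 reads in R1 and 72 in R2 lies far below the line.

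Whether a site of the junction is also a site of a flag A 1 junction, at any read level, split the set into 4 classes. Neither site was shared in 1712 junctions, 39.3% (95% Wilson interval 37.9 to 40.8). Only the acceptor was shared in 965, 22.2% (20.9 to 23.4), and only the donor in 952, 21.9% (20.7 to 23.1). Both sites were shared in 727, 16.7% (15.6 to 17.8). These intervals treat junctions as independent, although some share a gene, a site or the same reads, so they measure no spread between samples. The intervals of site use given later count reads. They cover counting error only, since PCR copies of a molecule cannot be recognised here. The class with both sites shared had the longest introns, with a median of 23240 bases and 65.7% over 10000. In the class with neither, 709 of 1712 had the second flag of the file, C, at 0, against 1, 29 and 28 in the others. A gene could be tied to 3467 of the 4356 junctions through matching intron and exon lengths.

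Slid introns were led by C3, complement component 3, a plasma protein made by the liver. Its junction at chr17:57349745-57350992 (mm9, minus strand), between exons 29 and 30 of transcript C3-201, had 34273 reads in R1 and 38031 in R2, the highest of the set in both libraries. Sod1, the cytosolic superoxide dismutase, followed at chr16:90221172-90223021 with 11327 and 11620 reads. Both libraries were close for these genes. Slc25a3, the mitochondrial phosphate carrier, had 8569 reads in R1 and 13603 in R2 at chr10:90586451-90586659. Cyp2d26, a liver cytochrome P450, had 5624 and 4758 at chr15:82623290-82623554. The R2 reads were above the R1 reads for Slc25a3 and below them for Cyp2d26. Sardh, which oxidises sarcosine, had 4098 and 4089 reads. For F12, coagulation factor XII, the values were 2987 and 4930. The 349 slid introns, counted as junctions, lay in 323 named genes or gene groups, and 35 had 1000 reads or more. Some belong to the same annotated intron, so they are not all distinct introns. At C3 exons 29 to 30, for example, another junction had 39 reads in R1 and 67 in R2. Junctions in Rnaset2a and Rnaset2b had the same 571 and 438 reads.

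The slide had a direction. Of the 349, 338 lay towards lower coordinates and 11 towards higher ones, 126 by 1 base, 143 by 2 and 80 by 3 to 6. A read across a join has the same letters at both places only if the bases slid over are repeated at the other end of the intron. On the plus strand, 192 were slid to lower coordinates. Of the 167 of these slid by 2 bases or more, 165 had exons before that end in AG, or 98.8%, against 54.8% of 60259 exons before a reference junction. On the minus strand, of 99 slid by 1 base, 92 had an exon after that begins with G and 6 one that begins with A. G begins 49.9% of the exons after reference junctions. Of 47 slid further on that strand, 22 had an exon after that begins with GC, 8 with GT and 8 with AT. GC begins 9.87% of the exons after reference junctions. Flag C was 0 in 330 of the 349, against 17.6% of the whole set and 0.247% of the reference set. The M21 place itself was also a junction in the file in 2 cases, with 2 reads at most. Intron letters were not read, since no mm9 genome was used here.

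**Figure D3:**
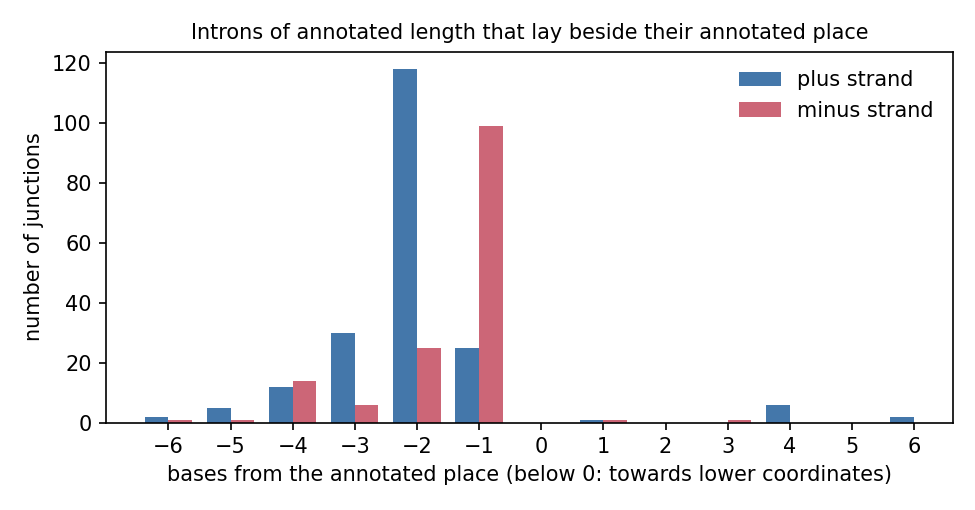
Number of slid introns (y axis) by bases from their annotated place (x axis, below 0 towards lower coordinates), by strand. Plus strand introns peak at 2 bases with 118 and minus strand introns at 1 base with 99, both towards lower coordinates.

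Junctions between genes tied together neighbouring copies. The 285 linked 144 genes in 112 ordered pairs, with a median intron of 51680 bases, and 282 of them spanned more than 10000. Symbols with the same first 3 letters stood on both sides in 240. Over the 38 bases nearest the join on each side, or the whole exon where shorter, 179 junctions had the same letters as the own junction of the donor gene or of the acceptor gene, 62.8% of this form. In 65 the letters of all 3 junctions were the same. Differences of 10 or more bases on both sides occurred in 3 junctions, with 334 reads together. Donor and acceptor belonged to introns of the same number in 203. Whether these reads came from RNA of one gene, of the other or of a joined transcript was not tested.

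Serpina1 genes are copies of the gene for alpha-1-antitrypsin, the protease inhibitor of plasma. Counted together with the gene Gm8893, they held 47.7% of the reads of this form in 26 junctions. Gm8893 was the acceptor gene in 3 junctions from Serpina1c (20788 reads in R1 and 15973 in R2) and 3 from Serpina1a (18721 and 15323). The best-read ran from Serpina1c exon 3 to Serpina1a exon 5, chr12:105093029-105135250, minus strand, with 31974 reads in R1 and 28229 in R2, beside 33979 and 29500 for the Serpina1c junction at the same donor. From the same donor to Gm8893, a gene at a TPM of 18.4 in replicate 1 and 31.8 in replicate 2, there were 20532 and 15809 reads at chr12:105057210-105135250, although the best-read own junction of Gm8893 at that acceptor had 69 and 79. Over the bases compared, this junction differed by 1 base from the own junction of Serpina1c and by 3 from that of Gm8893. From Serpina1e exon 4 to Serpina1c exon 5, chr12:105133414-105186223, the reads were 19099 and 12003, and 95.3% (95 to 95.6) of the Serpina1e donor's reads in R1 took this route against 84.9% (84.3 to 85.5) in R2. The own junction of Serpina1e at that donor had 604 and 1545 reads.

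Cytochrome P450 genes of the Cyp4 family, which hydroxylate fatty acids, gave 24 junctions and 13.2% of the reads of the form. Cyp4a10 exon 10 was joined to Cyp4a31 exon 11 by 10377 reads in R1 and 6370 in R2, and to Cyp4a32 exon 11 by 8135 and 5015. The own junctions of Cyp4a31 and Cyp4a32 at those acceptors had 110 and 93, and 210 and 270. These acceptors thus took 98.4% and 97.7%, and 96.0% and 92.5%, of their reads from the donor of Cyp4a10. In the gene tables Cyp4a10 stood at a TPM of 519 and 368, Cyp4a31 at 7.15 and 6.29, and Cyp4a32 at 7.05 and 10.5, in replicates 1 and 2. Exon 11 of Cyp4a10 has the same first 77 bases as that of either copy. In Cyp2 genes, 28 junctions held 8.49% of the reads. Cyp2c37 exon 1 to Cyp2c50 exon 2 had 5493 and 3600 reads, and Cyp2c40 exon 7 to Cyp2c68 exon 8 had 4866 and 4608. Serpina3k exon 2 to Serpina3m exon 3, in a family of secreted protease inhibitors, had 6450 and 5586. Within 38 bases of the join these Serpina3 exons do not differ.

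Complement and carboxylesterase genes followed. C4a and C4b, copies of complement component 4, shared 14 junctions with 11586 reads in R1 and 16210 in R2. At C4a exon 26, 1850 and 2428 reads went to C4b exon 26 and 9 and 10 to the next exon of C4a. C4a was at a TPM of 6.47 and 6.78 and C4b at 470 and 638. Exons 8 and 9 gave another picture, where the junction from C4a to C4b had 1256 and 1702 reads and the own junctions 1256 and 1706 for C4a and 1256 and 1710 for C4b. Equal reads recurred in this form. In 71 of the 285, which is 24.9%, another junction at the same donor or acceptor had exactly the same reads in R1 and in R2. Letters were not compared for this count. The share was 33.1% for pairs of known sites without a gene at both ends. It ran from 0.287% for slid introns to 8.67% for new acceptors in the other forms, and was not counted for the reference set. Ces3a and Ces3b, liver carboxylesterases, shared 12 junctions with 10431 and 13907 reads. Acat2 and Acat3, in the family of acetyl-CoA acetyltransferases, shared 8, with 5190 and 5512 reads. Genes of the H2 group, the major histocompatibility complex, shared 31 with 5962 and 9946 reads.

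**Figure D4:**
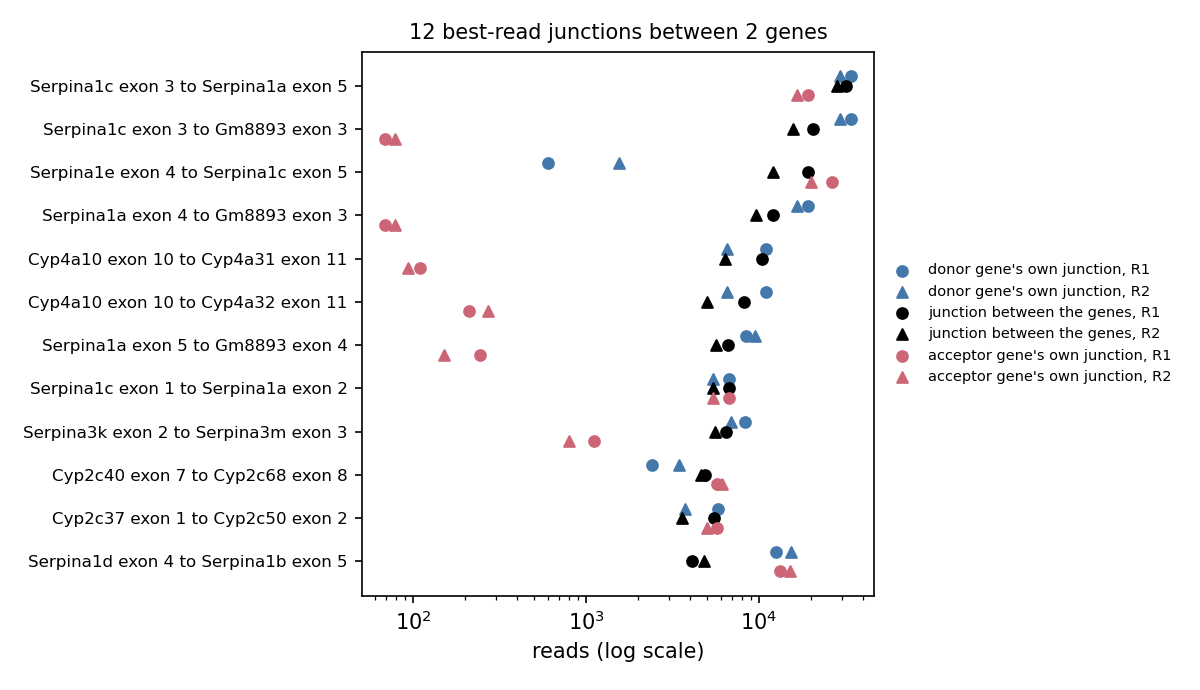
Reads on a log scale (x axis) of the 12 best-read junctions between genes (black), of the donor gene's best-read own junction at the same donor (blue) and of the acceptor gene's at the same acceptor (red). Circles are R1 and triangles R2. For Gm8893, Cyp4a31 and Cyp4a32 the acceptor gene's own junction lies far to the left of the junction between the genes.

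Among the 130 pairs of known sites without a gene at both ends, 2 on chromosome 7 were the best read. The one at chr7:31707775-31728915 had 7198 reads in R1 and 30005 in R2, and the one at chr7:31707632-31727683 had 12817 and 8940. R2 was far above R1 in the first and below it in the second. With matches of 2 introns in a row in place of 3, both joined Hamp to Hamp2, copies of the gene for hepcidin, the hormone that limits iron release, which stood at a TPM of 4500 and 6790 and of 5320 and 7560. Under the same looser rule 37 of the 130 joined 2 named genes. They include 2 between Hbb-bs and Hbb-bt, the adult beta-globin genes, with 1351 and 2560 reads and with 1189 and 2361. Another junction at the same site had exactly the same reads in both libraries in 43 of the 130.

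The highest use of a known site, meaning the share of the reads at a donor or acceptor that the junction took, was close to complete. Pnp2, a purine nucleoside phosphorylase gene, stood at a TPM of only 0.13 in replicate 1 and 0.02 in replicate 2. At 1 Pnp2 acceptor, 591 of 592 reads in R1 and 391 of 391 in R2 came from a donor 13028 bases away. No gene was named for that donor. Other junctions took between 99% and 100% of the reads at a site in both libraries. From a Cyp2d26 donor (350 reads in R1 and 408 in R2), that site was an acceptor with no gene named. To acceptors of Cyp2d22 (101 and 108) and Rdh16f2 (271 and 296), it was a donor with no gene named. Between H2-T-ps and H2-T23 (345 and 361) it was the H2-T-ps donor. From C4a to C4b there were 2, with 241 and 254 and with 221 and 214 reads, both with this use at the C4a donor. One with C4b as acceptor gene had 1911 and 2678, with this use at a donor without a named gene. Without a gene at both ends, the junctions at chr17:34873081-34953840 (1281 and 1670 reads) and chr14:118418016-118421511 (944 and 359) completed the 10. Of these 10, 9 had both sites in use by flag A 1 junctions.

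At 862 places the junction was an M21 intron, 19.8% of the set against 97.3% of the reference set. For 532 of them, 61.7%, no M21 transcript with that intron was among the M4 transcripts that the authors quantified, and for 330 at least 1 was. Transcripts were matched by identifier alone, and the introns of the M4 transcripts were not read. A protein-coding transcript held 609 of these introns, transcripts typed as targets of nonsense-mediated decay alone held 87, and other types 166. Neither site was shared with a flag A 1 junction in 342. Slc38a3, the glutamine transporter SNAT3, led by reads. Its junction at chr9:107561576-107569634 had 3104 reads in R1 and 3046 in R2 and took 84.2% (83.0 to 85.3) and 81.1% (79.9 to 82.4) of the reads at its acceptor, where the nearest known donor had 250 and 243. The gene stood at a TPM of 3020 and 3970. Qsox1, a sulfhydryl oxidase, had 2998 and 2724 reads at chr1:157625982-157626847 with neither site shared. Adk, adenosine kinase, had 946 and 1745 from a donor that took 97.5% and 99.0% of the reads at its acceptor, while the nearest known donor had 24 and 17. Ddc, aromatic L-amino acid decarboxylase, had 852 and 397 from a donor 4 bases before a known one with 1 and 3.

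Some genes held many of these introns. Mug-ps1, a pseudogene of the murinoglobulins, which are protease inhibitors of plasma, had 27 with 3504 reads in R1 and 6039 in R2. Mgam, maltase-glucoamylase, a starch-digesting enzyme better known from the intestine, had 17 with 2149 and 1969. For none of the 17 was an M21 transcript with that intron among the M4 transcripts by identifier. The M21 gene Gm4756 had 9 with 2462 and 1457, and BC024386 had 8 with 4871 and 5159. Sh3d19, an adaptor protein gene, had 8 with 1156 and 1073. Firre, a long noncoding RNA of the X chromosome, had 7 with 209 and 323. All of the introns counted for Mug-ps1, Gm4756, BC024386, Sh3d19 and Firre had neither site in use by flag A 1 junctions.

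Distances of new acceptors were spread widely, with a median of 112 bases and 187 beyond 10000. Over the 952 junctions that share only a donor, M21 introns included, the new acceptor lay 3 bases downstream of a known one in 106 and 3 bases upstream in 32. Distances of 4 and 5 downstream gave 29 and 12. Within 12 bases there were 240, of which 165 were at multiples of 3. From 13 to 200 bases, 122 of 272 were at multiples of 3, or 44.9%. Where the new acceptor lay inside a known exon, the letters just before it were AG in 312 of 316. For those at 3 bases this was 91 of 92, with CAG in 60, AAG in 16, TAG in 10 and GAG in 5, against 4.86% of reference exons that have AG as bases 2 and 3. In use, the median new acceptor took 9.17% of the reads at its donor in both libraries together, and 125 took over 50%.

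In Aes, a transcriptional corepressor of the TLE family, the acceptor at 3 bases had 923 reads in R1 and 1008 in R2 beside 13119 and 11761 at the known one, or 6.57% and 7.89% of the donor's reads. Ces1e, a carboxylesterase, was split almost evenly, with 767 and 831 at an M21 intron beside 783 and 912. For Slc25a13, the aspartate-glutamate carrier citrin, the new acceptor had 311 and 232 reads, 75.5% and 75.3% of the donor's reads, beside 101 and 76. The shares differed by less than 3 percentage points between libraries in these 3 genes. Col18a1, whose collagen chain yields endostatin, had 429 and 453, or 20.9% and 21.3%. Rarres2, which encodes the adipokine chemerin, had an acceptor 3 bases upstream at an M21 intron with 882 and 1106 reads, or 37.9% and 36.9%. In Rbp4, the plasma carrier of retinol, an acceptor 5 bases downstream had 614 and 746 reads against 29544 and 31321, or 2.03% and 2.33%.

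The best-read new acceptors lay farther from the known site, all but that of Serpina1d more than 10000 bases past it. Mug1, a murinoglobulin gene, had 6710 reads in R1 and 6494 in R2 at chr6:121834421-121902317, 67738 bases past the known acceptor, which had 6713 and 6495. At chr6:121824639-121892610 Mug1 had 1724 and 2265. Serpina1d had 4396 and 4624 at chr12:105007177-105011740, with the new acceptor at -919 bases, upstream of the known one. Cyp2c29 had 2087 and 3681 at chr19:39361776-39434408, and Cyp2d26 1650 and 1070 at chr15:82611579-82624414. In Mug1 the new and the known acceptor differed by 3 reads in R1 and 1 in R2.

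New donors were less clustered. Among the 965 that share only an acceptor, M21 introns included, 93 lay within 12 bases of a known donor. Of these 93, 14 lay 4 bases upstream and 7 lay 4 bases downstream. From 13 to 200 bases 107 of 282, or 37.9%, were at multiples of 3. Inside a known exon the letters after the new donor were GT in 161 of 171 and GC in 6. The median new donor took 11.6% of its acceptor's reads, and 156 took over 50%. Ces1c, the plasma carboxylesterase, led with 26165 reads in R1 and 33486 in R2 at chr8:95654799-95678274, or 45.6% (45.2 to 46.0) and 46.0% (45.7 to 46.4) of the acceptor's reads, from a donor at -23169 bases, upstream of the known one. Serpina1b had 2948 and 2556 at chr12:104970803-105066180, from a donor at -89874 bases, upstream of the known one. The known donor had nearly the same reads, 2949 and 2560. Hnf4a, the nuclear receptor that controls many liver genes, had 2267 and 2431 at chr2:163394746-163395684 from a donor 30 bases upstream of the known one, which had 1099 and 1348. That new donor took 67.0% (65.3 to 68.5) and 63.8% (62.2 to 65.3) of the reads at its acceptor. Tmem205, a membrane protein gene, had 2245 and 2385 at chr9:21730802-21731730, 5 bases downstream of a donor with 6344 and 8332. Serpina3n had 431 and 490 at 4 bases upstream, beside 774 and 951.

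**Figure D5:**
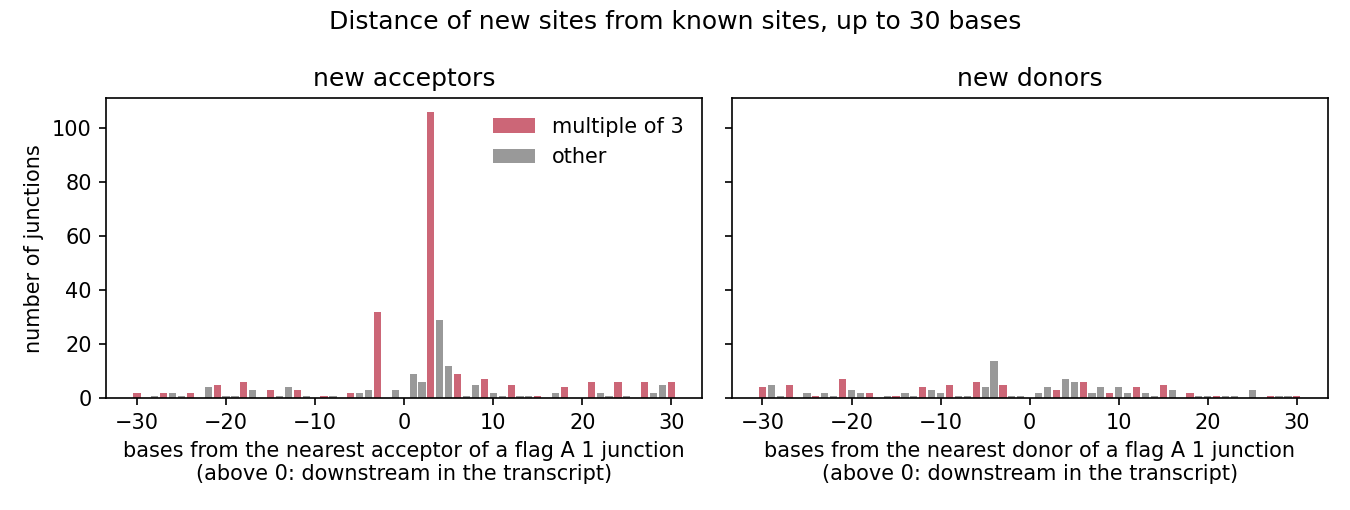
Number of junctions (y axis) by the distance in bases (x axis, above 0 downstream in the transcript) of a new acceptor (left) or new donor (right) from the nearest known site that shares the other end, up to 30 bases, with multiples of 3 in red. New acceptors peak at 3 bases downstream with 106 and new donors at 4 bases upstream with 14.

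Within 1 gene, 241 junctions joined known sites of different introns in 204 genes. For 223 of them a single M21 transcript had both sites, and the junction left out 1 exon in 193, 2 in 23 and more in 7. The bases left out were a multiple of 3 in 99, or 44.4%, with 62 at each of the other remainders, and their median was 134. Apoc3, an apolipoprotein that slows triglyceride clearance, had 996 reads in R1 and 1284 in R2 that left out an exon of 68 bases, or 2.08% and 3.12% of the reads at the donor. Gnmt, glycine N-methyltransferase, had 736 and 543 past an exon of 143 bases. Igf1, the liver-derived growth factor, had 559 and 477 past an exon of 90 bases, or 42.3% and 46.7% of the donor's reads. Slco1b2, a hepatic organic anion transporter, had 545 and 352 past 84 bases and took 98.9% and 93.6% of the reads at its acceptor. In Vav2, a guanine nucleotide exchange factor gene, the junction past 87 bases took 100% and 98.2% of the reads at both ends, with 145 and 107 reads. Apoc3 and Gnmt thus left the exon out in a small share of reads, and Slco1b2 and Vav2 in nearly all reads at an end.

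Neither site was known in 1021 junctions that matched no M21 intron, in place or slid, and 358 of them lay inside the span of a single named gene. Flag C was 0 in 375. Of those 375, 127 had an end within 10 bases of a known site, or 33.9%, against 6 of the 646 with flag C at 1. Both ends lay more than 10000 bases from a known site in 425. The best read, at chr17:39983466-39984994 with no gene named, had 8800 reads in R1 and 15008 in R2. The file gives a further whole number per junction, never above its reads and not explained, which stood at 344 for this junction, or 1.44% of its reads, against a median of 37.3% over the 212 junctions with 1000 reads or more. It was also low at chr6:52635420-52663813 (2488 and 1831 reads, 1.04%) and chr12:109457425-109481093 (1749 and 1893 reads, 2.17%). Under 5% were 5 of the 212, and 13 of the 5678 reference junctions with 1000 reads or more. The median of those reference junctions was 42.0%. The junction at chr9:50405355-50406864 had 4062 and 4563 reads with 30.1%. Itih3, an inter-alpha-trypsin inhibitor heavy chain of plasma, had 1529 and 2740 reads with 38.5%.

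Counted over all forms, 317 genes or gene pairs had 3 or more junctions and 23 had 10 or more. Mgam had the most, with 77 junctions, 7215 reads in R1 and 6488 in R2, at a TPM of 15 and 13.1, and 50 of the 77 shared neither site. Mug-ps1 had 30, Mug1 26, Ahsg and BC024386 23 each, Serpina1b 22, Apoe 16 and Firre 15. From C4a to C4b there were 14, in Ces3b 13, and in C3 and from Ces3a to Ces3b 12 each. Gc, the vitamin D-binding protein of plasma, had 11, as did Gm4756, and 10 matched introns of Anxa11 as well as of 2 gene models beside it, so that no single gene is named. Ahsg and Apoe, at TPM values above 10000, had 1782 and 1109 reads in all their junctions together, and their best-read junctions had 365 and 346.

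Contigs, the stretches of the genome that the authors listed as transcribed, covered the bases outside both ends of 3946 junctions, or 90.6%, against 99.5% of the reference set. By form the share was 99.4% for slid introns, 95.7% for M21 introns, 97.5% for pairs within a gene, 88.6% for new acceptors, 91.2% for new donors and 89.6% for the 1021 with neither site known and no M21 intron. It was 82.5% for junctions between genes and 53.1% for pairs of known sites without a gene at both ends. The middle of the intron lay in a contig in 56.3% of the set and 44.3% of the reference set.

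The use of sites was compared between R1 and R2 with a two-sided Fisher exact test per junction and site, with Benjamini-Hochberg adjustment over 122541 such tests in the file. The test sets 2 libraries against each other, 1 on each side, and says nothing of conditions. It treats reads as independent, so with PCR copies among them its p-values are too small, and they cover counting error only. The same reads of R1 and R2 chose the members, and the requirement of 10 reads in both libraries had already left out junctions seen in 1 library alone. Over the whole file 2733 tests passed an adjusted p of 0.05, which is 2.23%. Of 5811 tests on 3801 of the junctions described here 471 passed, or 8.11%, in 417 junctions. Among these 471 tests, use was higher in R2 in 251 and in R1 in 220. In the reference set 1151 of 36738 passed, or 3.13%. Sites of the set had a median of 314 reads against 205 over the file, and the part of depth in this difference was not tested. By form the share was 19.1% for junctions between genes (109 of 570, with a median of 1210 reads at the site), 10.2% within a gene (49 of 482, with 1270), and from 4.28% to 7.74% in the other forms. The median difference of those that passed was 6.16 percentage points, and 92 differed by more than 20.

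Ces1c to Ces1b gave the best-read large difference. From Ces1c exon 10 to Ces1b exon 12, chr8:95584334-95630458, there were 3170 reads in R1 and 72 in R2, or 85.8% and 29.5% of the reads at the acceptor (adjusted p = 8.36e-77, Fisher's exact test). The own junction of Ces1c at that donor had 7287 and 9110 reads, and the own junction of Ces1b at that acceptor 524 and 172. Ces1b stood at a TPM of 72.8 and 53.5. Arap3, a GTPase-activating protein gene, used 2 M21 introns from 1 donor, with 14 reads in R1 and 86 in R2 on one, 32.6% and 88.7% of the donor's reads, and 29 and 11 on the other, 67.4% and 11.3% (adjusted p = 1.73e-08 for both, Fisher's exact test). Ttc23 rose from 29.4% to 87.8% of an acceptor's reads (10 of 34 and 79 of 90, adjusted p = 2.06e-07, exact test). Plekhg3 fell from 86.4% to 26.2% of a donor's (19 of 22 and 11 of 42, adjusted p = 6.55e-04), and Nid2, a basement membrane protein gene, from 100% to 41.7% of an acceptor's (28 of 28 and 10 of 24, adjusted p = 1.86e-04), both by the exact test. C8a, a chain of complement component 8, went from 15.4% to 54.4% at a donor, with 16 and 56 reads (adjusted p = 8.82e-07, exact test). Fgg, the gamma chain of fibrinogen, went from 36.0% to 77.4% at an acceptor with 18 and 24 reads (adjusted p = 2.87e-02, exact test). The junction at chr5:141849785-141856714, without a gene, went from 61.1% to 100% of a donor's reads (adjusted p = 4.02e-03, exact test). Lower in R2 by the exact test and without a gene were the donor use at chr12:114660942-114667295, from 100% to 30.4% (adjusted p = 8.53e-08), and the acceptor use at chr12:105006255-105011739, from 100% to 37.0% (adjusted p = 8.86e-03). At chr17:39983709-39983924 the acceptor use went from 96.4% to 40.0% (adjusted p = 2.01e-06, exact test), while the donor use of the same junction was 94.7% in R1 and 100% in R2. The donor use of the Fgg junction was 81.8% and 82.8%. Most of these rest on under 100 reads a site.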

How the data were processed

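The members and lists were chosen with earlier results of these data known. The deposited junction file, on mm9 per the accompanying notes, gives read counts of R1 and R2 per junction, with 2 unexplained flags. The sources used here name no aligner or caller for it. Raw counts were used without scaling unless stated. A reproducibility score that the authors deposited was used only to restrict contigs, and the deposited contig signal was used for position alone. The authors' gene tables, on mm10 with annotation M4 per the accompanying notes, hold estimated counts (60770411 and 61688916 reads in replicates 1 and 2) and TPM. Reads of gene copies may be shared among them in all of these.

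No coordinate was moved between builds. A gene was tied to junctions where 3 or more introns in a row of a GENCODE M21 transcript (GRCm38) were found with exact intron and exon lengths. The other introns of a transcript with 1 such place were laid out by its own lengths, and an intron of equal length up to 10 bases away was called slid. Site use was tested at sites with at least 20 reads and 2 or more junctions. Wilson intervals came from statsmodels 0.14.6, tests from scipy 1.17.1, both in Python 3.11.15.

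Named are the 10 junctions with most reads, the 5 with most reads in each site class, the 10 with highest use of a known site, the 5 largest differences in use in each direction past the test, and up to 15 genes with 3 or more members. Other genes named as examples were chosen after their values were seen.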

Additional observations from a re-analysis of the deposited data

How the results depend on the processing

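Of 43 recomputed values 23 stayed within their limits and 20 moved, none with a direction to reverse. Class shares moved with the read minimum. At 5, 20 and 50 reads per library the sets held 7540, 2519 and 1192 junctions, both sites were shared in 14.7%, 19.3% and 25%, and only the donor in 23.6%, 20.1% and 16.9%. Only the acceptor was shared in 20.1% and 17.8% at 20 and 50 reads. With flag A 1 junctions of at least 10 reads in R1 and R2 as the known ones, both sites were shared in 13.7% and neither in 44.4%. With sites within 3 bases counted as shared, the shares were 21.7% for both, 18.8% for the donor, 23.5% for the acceptor and 36.1% for neither. Median use at the shared donor ranged from 9.25% to 9.33% with R1 or R2 alone, and at the shared acceptor from 11% to 11.4%. With only the junction and flag A 1 junctions in the denominator these medians were 10.1% and 13.3%. Contigs with a score of at most 0.1 covered both ends of 87.3%. Matches of 2 or 5 introns in a row named a gene for 3606 or 2866 junctions. They changed or dropped the name given to 124 with 2 and gave another name to 103 with 5. With 2 or 5 introns, M21 introns numbered 1023 or 594, against 862 with 3. Junctions between genes numbered 289 or 227, against 285, and slid introns 357 or 297, against 349. Calls of the site use test stayed within 1.5 times at 10 and 100 reads per site, at 453 and 487. No paired analysis was possible because the series has 1 group. A median of 61 reads per junction limits small shares of use.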

Other observations

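Some of the 1021 junctions with neither site known and no M21 intron lay close together. Among those with flag C at 1, links across gaps of at most 500 bases on 1 strand gave 16 groups of 4 or more, with 149 junctions in all. The best read had no gene named, with 5 junctions on the minus strand of chr15:82467429-82470535, 4520 reads in R1 and 8579 in R2. R2 was above R1 in its summed reads. At chr7:148091973-148106584, plus strand, 18 junctions, some inside the span of BC024386, had 3192 and 3375 reads. Mgam held the largest group by number, 33 junctions at chr6:40638140-40700136 with 3148 and 2762 reads. On chromosome 4, 10 junctions on the minus strand of chr4:3016772-3018246 had 291 and 872 reads, with R2 above R1, and no gene was named. Firre held 8 on the minus strand of chrX:47918145-47965881 with 127 and 221. These groups were found after the values were seen, and no test was made on them.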
